A study of Monodelphis domestica with 25 samples.

Results

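The first 12 h of blood culture were followed in 6 of the 25 libraries of a study of blood from the LSD strain of Monodelphis domestica, the gray short-tailed opossum. They were chosen by label: 3 libraries of untreated whole blood at 0 h and 3 at 12 h, one per time for each of the identifiers A0036, A0039 and A3538. The labels do not say that these identifiers are animals, so p-values measure the spread between these libraries, which may be technical. The blood was diluted in RPMI culture medium with glutamine and antibiotics, and kept in well plates in a CO2 incubator. A pair of dilutions was used in this experiment, and which library had which is not given in the labels. The same identifiers were sampled at 24, 48 and 72 h, and a second experiment held 10 further libraries. Of those, only the 12 and 24 h control cultures, with the identifier A9394, are used here. The labels' protocols name 0.1% dimethyl sulfoxide for control groups.

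Whole blood is a mixture of red cells, platelets and several kinds of leukocyte. Mammalian red cells carry RNA left over from their precursors and, lacking a nucleus, make none. Leukocytes keep transcribing after blood leaves the body and respond within hours to the vessel, the medium and damaged neighbours, while messages that are no longer made decay. In a whole blood sample, fewer cells of a type and less RNA per cell cannot be told apart. The files name transcripts by Ensembl transcript identifier and do not pair these with gene names, so the cell types of the label were not checked against marker genes, and no function is given to an identifier.

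Total counts ran from 51349217 (A0039, 0 h) to 336472834 (A3538, 12 h) per library. At this depth 3 counts in a library equal 0.0169 to 0.0689 CPM. CPM are counts relative to the library total, scaled by the trimmed mean of M values (TMM) and not corrected for transcript length, so levels are compared between libraries and not between transcripts. Shares of counts carry 95% Clopper-Pearson intervals of at most 0.0654 percentage points to either side. These cover counting error only and take counts as independent, which the excess of even values given below puts in doubt.

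After 12 h, 631 transcripts were higher and 560 lower than in fresh blood, out of 15524 tested. The share called was 7.67% in either direction, 4.06% higher and 3.61% lower (edgeR's quasi-likelihood test, Benjamini-Hochberg adjusted p under 0.05). Among the called transcripts, 625 of the 631 higher and 541 of the 560 lower had no overlap between the 3 libraries at 0 h and the 3 at 12 h. Being called on these same libraries largely fixes this. Over all tested transcripts, 17.1% lay without overlap on the higher side and 13.6% on the lower. The test did not pair the libraries by identifier. With the identifier as a replicate block, 835 transcripts were called higher and 838 lower. Leaving out the A0036 or A3538 library of 12 h gave 450 and 600 calls, leaving out A0036 at 0 h gave 728, and DESeq2 called 2102. Of the transcripts called here, 243 higher and 144 lower ones were called in all 6 fits that each left out 1 of the 6 libraries.

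**Figure D1:**
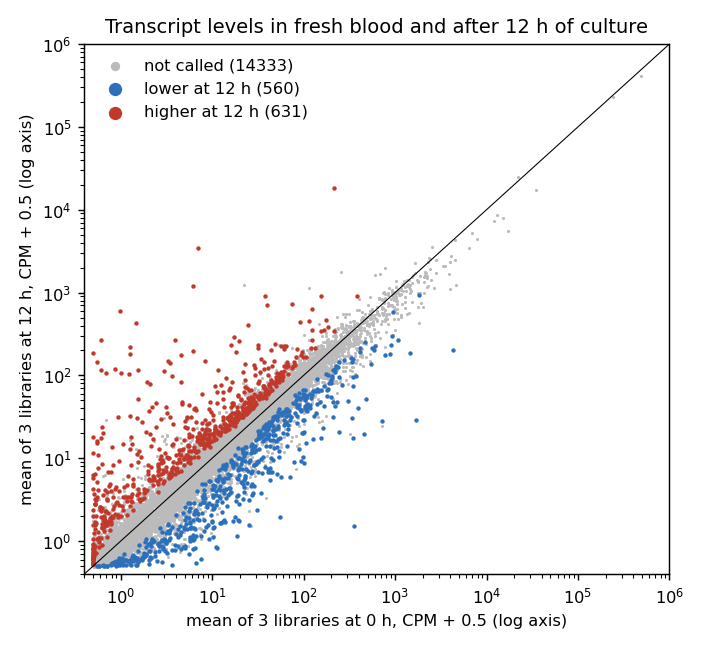
Each point is a transcript, with its mean level over the 3 libraries at 0 h on the horizontal axis and at 12 h on the vertical axis (CPM + 0.5, log axes, diagonal: no change). The 631 called higher and 560 called lower lie on both sides over most of the range. The 3 most abundant transcripts at 0 h were not called, while ENSMODT00000000832, with a mean of 18189 CPM at 12 h, was called higher.

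Rises of 16-fold or more outnumbered falls of that size, while 248 transcripts changed 4-fold or more in each direction. Of the transcripts called higher, 118 had a fitted change of 16-fold or more, 130 of 4- to 16-fold, 189 of 2- to 4-fold and 194 of under 2-fold. Of those called lower, 39, 209, 204 and 108 fell in these classes. The middle of the distribution showed the opposite order: the median log2 fold change was 1.54 for the higher set (quartiles 0.92 and 3.05) and -1.83 for the lower set (quartiles -2.84 and -1.14), beside 0 over all tested transcripts. The difference between these distributions was not tested, and fitted changes of transcripts at or near 0 counts depend on the prior count of the model.

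**Figure D2:**
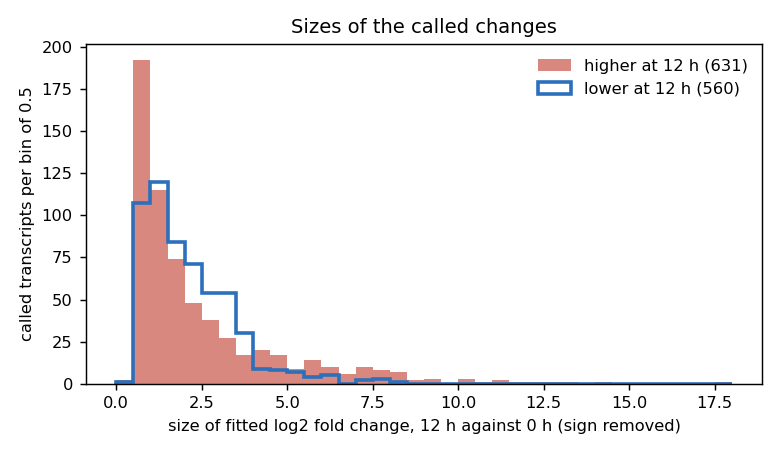
The bars give the number of called transcripts (vertical axis) by the size of the fitted log2 fold change without its sign (horizontal axis, bins of 0.5), filled for the 631 higher and outlined for the 560 lower. The higher set has the tallest bar under 1 and a longer tail, with 118 transcripts at 4 or more against 39 in the lower set.

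Few transcripts of any kind were without a count at either time. Of the 631 higher ones, 30 (4.75%) had none in any 0 h library, beside 399 (2.57%) of all 15524 tested, and those 30 reached a median of 0.196 CPM at 12 h. Of the 560 lower ones, 6 (1.07%) had none at 12 h, beside 152 (0.979%) of all tested. Single counts lie under the floor of 3, so nothing is read from these shares. Changes were called at all levels. Among transcripts with a mean under 1 CPM over the 6 libraries, 4.06% of 3893 were called, against 9.37% of 3905 at 1 to 10 CPM, 8.67% of 6387 at 10 to 100 CPM and 8.44% of 1339 at 100 CPM or more.

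The transcripts that rose took up a larger share of all counts after 12 h. At 0 h the 631 together held 0.567% of counts in A0036, 1.12% in A0039 and 0.557% in A3538. At 12 h they held 5.11%, 5.14% and 2.83%. All 3 libraries at 12 h were above all 3 at 0 h. A few of the transcripts made up much of this, the 10 with the most counts holding 55.1%, 41.7% and 55.1% of the set's counts at 12 h. The 560 that fell went from 2.24%, 4.55% and 2.51% to 0.959%, 1.87% and 0.634%. All 3 libraries at 12 h were below all 3 at 0 h. The sets were chosen on these libraries, so these shares are descriptions.

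ENSMODT00000000832 had the highest CPM at 12 h among the risers that stayed called without any 1 of the 6 libraries. In fresh blood A0036 had 286 CPM, A0039 239 and A3538 114, and after 12 h they had 23496, 7890 and 23181 CPM. The groups were far apart, and A0039 was the lowest of the 3 at 12 h. The mean rose 85.4-fold, from 213 CPM ± 88.7 (SD, n = 3) to 18189 ± 8921 (fitted log2 change 6.42 with an SE of 0.619, edgeR quasi-likelihood adjusted p = 7.09e-05). This 1 transcript then held 1.78%, 1.01% and 1.10% of the counts of the 3 libraries. Later libraries were also high, with 14824 to 20859 CPM (24 h), 12950 to 21951 (48 h) and 5067 to 12728 (72 h).

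ENSMODT00000024336, the next by the same rule, was at 6.86, 0.168 and 12.6 CPM at 0 h in A0036, A0039 and A3538, the A0039 value resting on 10 counts. At 12 h it was at 4661, 3039 and 2704 CPM. All libraries at 12 h thus lay far above all at 0 h, with the spread at 0 h much the wider in proportion. The mean went from 6.54 CPM ± 6.22 to 3468 ± 1046, 530-fold (fitted log2 change 9.05 with an SE of 1.46, edgeR quasi-likelihood adjusted p = 0.00308). It had its highest level of the course at 12 h in every identifier, with 1804 to 2410 CPM after 24 h and 104 to 810 after 72 h. ENSMODT00000000832 was highest at 12 h in A0036 and A3538 but not in A0039.

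Among the fallers, ENSMODT00000007478 had 1008, 1671 and 2444 CPM in fresh blood of A0036, A0039 and A3538, and 26.5, 29.7 and 29.2 CPM after 12 h. The 3 libraries differed widely before culture and were nearly equal after it. The drop was 60.0-fold, from 1708 CPM ± 719 (SD, n = 3) to 28.5 ± 1.72 (fitted log2 change -5.91 with an SE of 0.647, edgeR quasi-likelihood adjusted p = 0.000164). Later libraries held 12.1 to 62.3 CPM, all far below fresh blood.

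ENSMODT00000033323 fell less, and had lower means at each later time. Fresh blood had 1326, 798 and 1123 CPM and the 12 h cultures 251, 350 and 210 CPM, with no overlap. The mean fell 4.00-fold, from 1082 CPM ± 266 to 270.4 ± 71.7 (fitted log2 change -2.00 with an SE of 0.289, edgeR quasi-likelihood adjusted p = 0.00122). The ranges were 163 to 222 CPM after 24 h, 33.6 to 64.8 after 48 h and 15.3 to 16.7 after 72 h, lower at each later time in A0036 and A0039, while A3538 was at 210 and 222 CPM at 12 and 24 h.

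**Figure D3:**
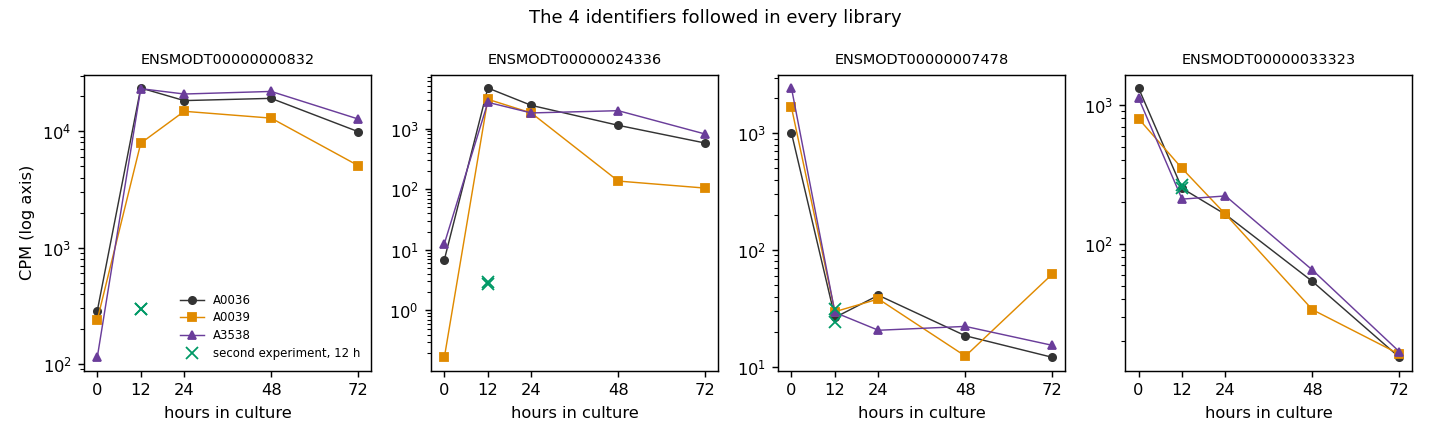
Each panel follows 1 transcript, with hours in culture on the horizontal axis and CPM on a log vertical axis. Lines join the libraries of A0036, A0039 and A3538, and crosses mark both 12 h control cultures of the second experiment. The crosses lie near the 12 h libraries for the pair that fell and far below them for the pair that rose.

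The 3 transcripts with the most counts in fresh blood were not called at 12 h. ENSMODT00000014407 held 35.98% of the counts of A0036, 12.7% of A0039 and 34.0% of A3538 at 0 h, and 29.0%, 6.75% and 38.0% at 12 h. It was lower at 12 h in 2 identifiers and higher in A3538, and the groups overlapped. The fitted log2 change was -0.26 with a 95% interval of -3.47 to 2.95 (edgeR quasi-likelihood adjusted p = 0.945), which does not show that it stayed the same. ENSMODT00000021124 held 16.8%, 4.95% and 17.7% at 0 h and 15.3%, 3.99% and 21.5% at 12 h (log2 fold change -0.07, interval -3.54 to 3.41, adjusted p = 0.991). ENSMODT00000014426 held 2.31%, 0.646% and 2.67%, and then 1.11%, 0.144% and 1.69%. Its level was lower at 12 h in all 3 identifiers, with log2 differences of -1.60, -2.31 and -0.59, and it did not pass (fitted -1.01, interval -4.28 to 2.26, adjusted p = 0.733). With the identifier as a replicate block the log2 change of ENSMODT00000014426 was -1.63 (adjusted p = 0.0607), that of ENSMODT00000014407 -0.75 (0.491) and that of ENSMODT00000021124 -0.42 (0.751), all still uncalled.

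Of the 100 transcripts with the largest mean share at 0 h, 80 were also among the 100 largest at 12 h. In the 0 h list, 4 were called lower and 0 higher by edgeR, beside 3.61% lower and 4.06% higher of all tested. DESeq2 had 9 and 0, and 11 and 0 were at an unadjusted p under 0.05. In the 12 h list, 4 were called higher and 0 lower, with 6 and 4 at an unadjusted p under 0.05 and 6 and 3 by DESeq2. Of all 15524 tested, DESeq2 called 1014 higher and 1088 lower, and 3599 were at an unadjusted p under 0.05 in either direction. No result about abundant transcripts is read from the counts in the lists. The lists were chosen by the levels at 0 and 12 h, which sets the direction in part.

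The share held by the largest transcripts differed more between identifiers than between 0 and 12 h. The 10 largest transcripts held 60.6%, 22.6% and 61.8% of counts at 0 h in A0036, A0039 and A3538, and 51.5%, 17.1% and 67.0% at 12 h. The mean went from 48.3% ± 22.3 (SD, n = 3) to 45.2% ± 25.5 (exact two-sided permutation p = 0.8). Thinned to the smallest total, the libraries showed 15290, 15219 and 14938 transcripts at 0 h and 15615, 15978 and 15325 at 12 h, more at 12 h in 3 of 3 identifiers. Every 12 h library was above every 0 h library. This difference of 490 transcripts had an exact two-sided permutation p of 0.1, the smallest that 3 against 3 allows, and 0.4 after Benjamini-Hochberg adjustment over 4 measures. The share of the 100 largest transcripts and the effective number of transcripts, an entropy measure, each gave an exact p of 0.7.

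The sets held in each identifier, a direction that their choice on these libraries largely fixes. All 631 higher transcripts rose within A0036 and A3538 and 630 within A0039, while 560, 560 and 557 of the lower ones fell within A0036, A0039 and A3538. The median change of the higher set was 1.24, 1.14 and 1.13 on the log2(CPM + 0.5) scale in A0036, A0039 and A3538, and that of the lower set was -1.38, -1.32 and -1.31. Counted without any test, 306 transcripts (1.97% of those tested) were at least 2-fold higher in every identifier and 430 (2.77%) at least 2-fold lower. With scaling to library totals in place of TMM these counts were 330 and 290, so their order turned. They were 193 and 269 with 2 CPM added in place of 0.5, and 449 and 625 with 0.1 CPM added.

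Rank order within a library kept most of its form. Over the tested transcripts, Spearman's rho was 0.957 to 0.987 between libraries at 0 h and 0.976 to 0.990 between those at 12 h. Between 0 and 12 h it was 0.957 to 0.959 within an identifier and 0.936 to 0.959 across identifiers. These correlations are across transcripts, which are not independent, and are descriptions.

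The change of the first 12 h differed from that of the next 12 h for 131 transcripts, 0.844% of those tested. The test was a contrast of both changes in the same model, and 79 transcripts (0.509%) had the more positive change in the first interval and 52 (0.335%) the more negative. Median levels of the first set were 0.771, 31.0 and 26.0 CPM (0, 12 and 24 h). In the means, 47 of these 79 went up and then down, and 32 went up in both intervals. The second set stood at 20.7, 3.46 and 8.06 CPM, and 49 of its 52 went down and then up. Over all 15524 tested, 3977 went up and then down, 3754 up in both and 3892 down and then up. Choosing by the first change minus the second largely fixes these shapes, so they are descriptions. The count was 281 with the identifier as a replicate block, 490 by DESeq2, and 40 to 83 when any 1 of the 12 or 24 h libraries, or A0036 at 0 h (67), was left out.

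Both named risers belonged to this contrast. For ENSMODT00000000832 the first change exceeded the second by 6.43 on the log2 scale (SE 0.824, edgeR quasi-likelihood adjusted p = 0.00251), and for ENSMODT00000024336 by 9.84 (SE 1.82, adjusted p = 0.0210). The latter call ended when A0036 was left out at 0, 12 or 24 h (adjusted p = 0.0724, 0.0916 and 0.0654), or A0039 (0.0649) or A3538 (0.0667) at 24 h. ENSMODT00000007478 differed by -6.13 (SE 1.07, adjusted p = 0.0154), a call lost without any of the 12 h libraries (0.0671 to 0.119). ENSMODT00000033323 did not pass (-1.43, adjusted p = 0.272). ENSMODT00000015457, the other transcript named for this contrast, went from 575, 478 and 1117 CPM at 0 h to 35.1, 20.3 and 26.8 at 12 h and 9.98, 11.5 and 15.4 at 24 h in A0036, A0039 and A3538. It went down in both intervals and more steeply in the first (difference -3.57, SE 0.749, adjusted p = 0.0407), a call kept among the leave-one-out fits only without the 0 h library of A0039 (0.0669 to 0.178 in the others).

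As medians of each set, levels at 12 h were near those found later, which does not show that each transcript kept its level. From 0 to 12, 24, 48 and 72 h, the median level of the 631 higher transcripts was 5.73, 19.8, 21.0, 22.6 and 22.8 CPM. For the 560 lower ones it was 19.1, 5.41, 5.94, 5.21 and 5.23 CPM. Over all tested transcripts the median was 9.29, 9.70, 9.67, 9.61 and 8.50 CPM. By mean level, 438 of the 631 were more than 2-fold above 0 h at 12 h and 418 at 72 h. Of the 560, 452 were more than 2-fold below 0 h at 12 h and 356 at 72 h. The times share the same 0 h libraries, and the sets were chosen on the 0 and 12 h libraries, so the values are set side by side without a test. The highest of the 5 times was 12 h for 190 of the higher transcripts and 72 h for 246, beside 2361 and 5276 of all 15524.

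**Figure D4:**
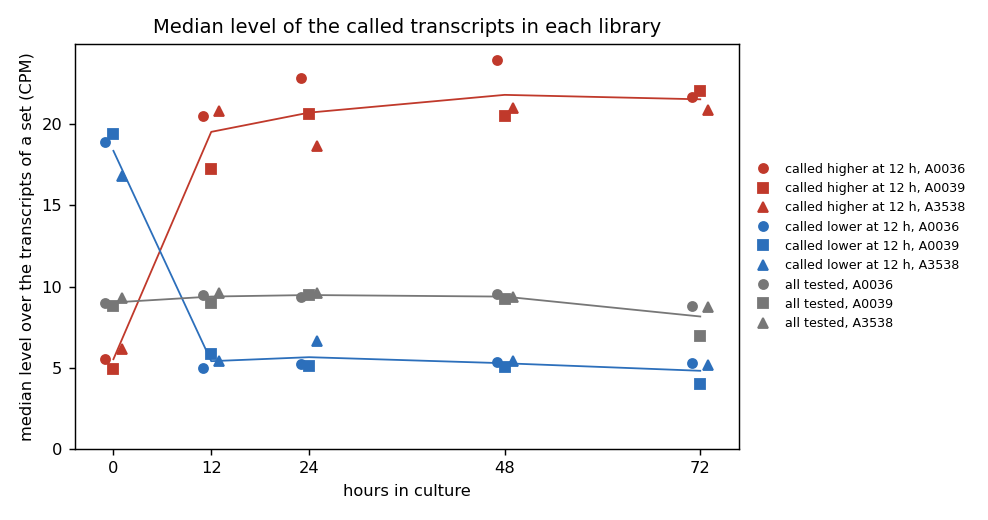
Points give, for each library, the median CPM (vertical axis) over the transcripts called higher, those called lower and all tested, against hours in culture (horizontal axis, points of 1 time set apart sideways for legibility). Symbols mark the identifier and lines join the means of 3 libraries. The higher set lies between 17.3 and 24.0 CPM and the lower set between 4.02 and 6.62 CPM in all libraries from 12 h on.

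Many of the strongest risers were not at such levels in the 12 h control cultures of the second experiment. The second experiment's 12 h controls, 2 libraries with totals of 8902853 and 11685427 counts, held ENSMODT00000000832 at 298 and 299.8 CPM, against 7890 CPM or more at 12 h in the time course. They held ENSMODT00000024336 at 2.72 and 2.98 CPM, against 2704 CPM or more. Both transcripts were therefore near or within the range of the 0 h libraries there. The named fallers, in contrast, were at 31.0 and 24.1 CPM (ENSMODT00000007478) and 252 and 265 CPM (ENSMODT00000033323), close to or within the 12 h range of the time course. That experiment has no 0 h library, and its table was scaled separately. The transcripts with the most counts in fresh blood differed as well. ENSMODT00000014407 was at 5488 and 5358 CPM there, against 52719 CPM or more at 12 h in the time course. ENSMODT00000021124 was at 1184 and 1203 CPM, against 31189 CPM or more. Identifier, solvent, depth and the levels of these abundant transcripts differ together between the experiments and cannot be told apart. The dilution of each time course library is not given.

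Over the whole sets the same values differed with the size of the rise. Of the 118 transcripts with a rise of 16-fold or more, 15 (12.7%) reached the lowest 12 h library of the time course in both of these cultures, 89 lay below all its 12 h libraries in both, and 47 (39.8%) lay above all 0 h libraries in both. Of the 194 that rose under 2-fold, 147 (75.8%) reached the lowest 12 h library and 172 (88.7%) lay above all 0 h libraries. Of all 631 higher transcripts, 306 (48.5%) reached the lowest 12 h library and 420 (66.6%) lay above all 0 h libraries. Over all tested transcripts these shares were 65.8% and 41.9%, and 3061 of 15524 lay below all 12 h libraries of the time course in both cultures. The median levels of the 16-fold risers were 0.0669 CPM at 0 h, 5.55 at 12 h and 0.391 in the second experiment, where 3 counts equal 0.241 and 0.340 CPM, so many are near the depth limit there. Of the 560 lower transcripts, 274 (48.9%) were below all 0 h libraries in both cultures, beside 18.3% of all tested. At or below the highest 12 h library were 141 (25.2%), beside 36.1%. Above all 12 h libraries in both cultures were 350 of the 560, beside 7403 of all 15524 tested. Transcripts chosen for extreme values in some libraries tend to be less extreme in others, and no test was made.

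**Figure D5:**
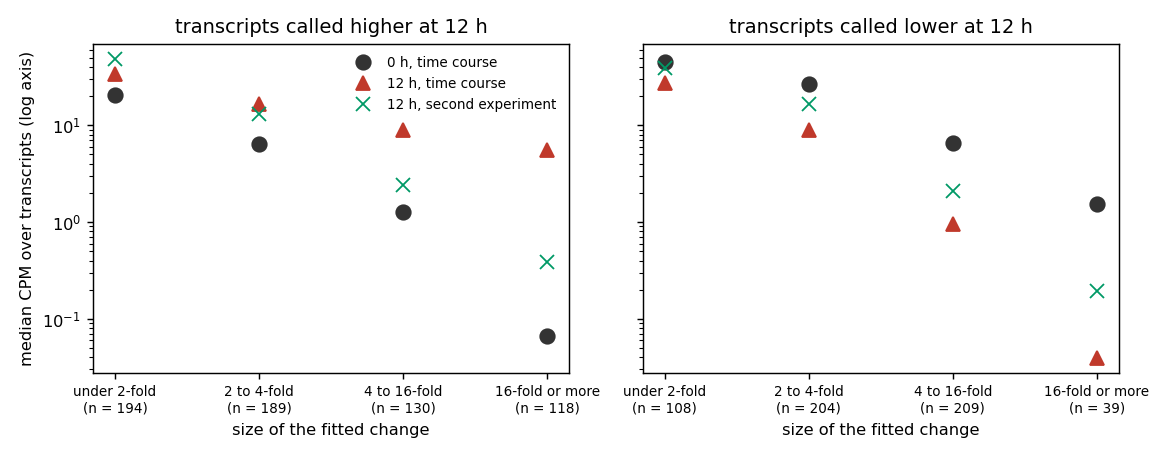
Symbols give the median CPM over the called transcripts (log vertical axis) by size class of the fitted change (horizontal axis, number of transcripts below). They show 0 h and 12 h of the time course and the 12 h control cultures of the second experiment. For rises of 16-fold or more the second experiment lies at 0.391 CPM, between 0.0669 at 0 h and 5.55 at 12 h, while for rises under 2-fold it lies above both.

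The table also holds 10 features with names in place of identifiers, and 0 of the 9 tested passed at 12 h in edgeR's test. DESeq2 called 1, and 1 was at an unadjusted p under 0.05. Over all 15524 tested, edgeR called 7.67%, DESeq2 called 2102, and 3599 were at an unadjusted p under 0.05. With 9 features, these counts do not set the named features apart from all tested. Fsnt3 was the feature called by DESeq2 and the feature under 0.05 unadjusted. It had 1.29, 0.807 and 0.988 CPM in fresh blood and 2.92, 1.64 and 2.48 CPM after 12 h in A0036, A0039 and A3538. The groups did not overlap, but the log2 fold change of 1.18 (SE 0.384) had an edgeR quasi-likelihood adjusted p of 0.0775 and passed only in DESeq2 (0.0322). Tnsf1 was at 4.98, 3.03 and 2.89 CPM and then at 1.80, 0.955 and 3.52 CPM, lower in 2 identifiers and higher in A3538 (log2 fold change -0.80, adjusted p = 0.292). Fsnt1 had the same pattern of identifiers, from 2.56, 1.66 and 1.49 CPM to 1.14, 0.537 and 2.04 CPM (-0.63, adjusted p = 0.407).

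Most of the other names are those of genes that are imprinted in eutherian mammals, that is, expressed mainly from the copy of 1 parent. Phlda2_trans, named after a gene that restrains placental growth, had 13.2, 14.1 and 9.05 CPM in fresh blood and 13.0, 5.46 and 19.9 CPM after 12 h, with a different direction in each of A0039 and A3538 (log2 fold change 0.08, interval -1.49 to 1.64, adjusted p = 0.971). Cdkn1c_trans, named after an inhibitor of the cell cycle, was at 1.22, 1.92 and 0.459 CPM and then at 0.608, 0.452 and 0.425 CPM (-1.28, adjusted p = 0.538). The noncoding H19_trans was at 0.370 to 0.597 CPM and then at 0.650 to 0.750 CPM (0.42, adjusted p = 0.623). Igf2_trans and Peg10_trans stayed at or below 0.329 CPM in all 6 libraries (adjusted p = 0.59 and 0.981), and Ins2_trans, named after insulin, had no count in any. Rsx, the noncoding RNA that coats the inactive X chromosome of female marsupials, had 0, 14 and 0 counts at 0 h and 15, 2 and 6 at 12 h, too few to show a change (adjusted p = 0.827).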

How the data were processed

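The deposited values are raw counts per transcript, in whole numbers, 1 table per experiment. The submitters' processing notes list the aligners Bowtie2 and TopHat2 (2.1.1), bedtools (2.30.0), R (4.1.2) with edgeR, Trimmomatic (0.36) and FastQC (11.5). Build, annotation and strand setting are not given in the sources, and values of overlapping, antisense or near-identical transcripts are uncertain. After removal of 4 duplicated names, 22059 features remained. No identifier occurred in the reference gene table (0 matches). Of values from 1 to 12, 71.0% were even, so counts of 1 were not independent events.

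The test was edgeR 4.0.16's quasi-likelihood F test (limma 3.58.1, R 4.3.3) with TMM, filterByExpr (minimum count 10) and Benjamini-Hochberg adjustment. It used 1 model of the 15 time course libraries with time as the only factor. A run on simulated, independent counts held no identifier effect, so it does not cover the pairing of libraries. Standard errors are the log2 fold change divided by the root of F. Composition used exact permutation. Deviations from the group means correlated between 0 and 12 h by 0.238, 0.630 and 0.525 within A0036, A0039 and A3538. Between 0 and 24 h A0036 gave 0.0448. Whether these correlations came with the identifier or with the dilution, which is not given per library, was not tested. Alternatives were DESeq2 1.42.0, other scalings, filters and depths, a block and leaving out libraries.

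Named transcripts were those called, without overlap, in 1 direction in all identifiers and called in each leave-one-out fit, 2 a direction by highest CPM. For the contrast of both intervals they were the 2 called with the highest CPM a direction. The 3 largest transcripts at 0 h and all named features were added. Members, lists and tests were chosen with earlier results of these data known, and the comparison with the second experiment after seeing the data. Gene lists by symbol could not be applied.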

Additional observations from a re-analysis of the deposited data

How the results depend on the processing

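The count of 1191 transcripts at 12 h was 1044 to 1673 with RLE size factors, no filter, a replicate block (1673, 835 of them higher), only the libraries of both times, abundant transcripts removed, counts divided by 2 or thinning, 2102 by DESeq2, and 450 to 976 without 1 library. Of the 1191, 1171 were also called with the block and 818 in the fit of both times alone. The contrast of both intervals had 131 calls, 281 with the replicate block, 490 by DESeq2, 122 to 191 in the other whole-sample settings and 40 to 124 without 1 library. The 736 transcripts at least 2-fold changed in every identifier became 462 with 2 CPM added and 1074 with 0.1 CPM added. They became 894 to 1112 with 1 identifier left out, which asks for agreement of fewer pairs. The block changed no call of a named transcript. No named call and no composition measure changed direction in any alternative run. The cause of the differences between tools was not tested. Depth limits transcripts under 0.0689 CPM in the time course and under 0.340 CPM in the second experiment. With 2 identifiers left, the exact test cannot go below 0.333.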

Other observations

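Libraries at 12 h were closer to each other than those at 0 h. The median difference between A0036 and A3538 over all tested transcripts was 0.216 at 0 h and 0.144 at 12 h on the log2(CPM + 0.5) scale, between A0036 and A0039 0.361 and 0.251, and between A0039 and A3538 0.409 and 0.239. Each of the 3 differences was smaller at 12 h, and those with A0039 were the larger at both times. Library totals differed too, with the smallest (51349217) at 0 h in A0039, and their part in this was not tested.

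In the second experiment's control cultures at 24 h, ENSMODT00000000832 was at 56.8 and 89.2 CPM and ENSMODT00000024336 at 0 and 1.82 CPM. The level in the time course at 24 h was 14824 CPM or more and 1804 CPM or more. The transcript ENSMODT00000033323 was at 87.5 and 95.8 CPM at 24 h there, beside 252 and 265 CPM at 12 h.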
